A study of Homo sapiens with 4 samples.

Results

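Ferroptosis is a form of cell death in which phospholipids that carry polyunsaturated fatty acids are oxidised in an iron-dependent chain reaction. Cells hold it in check by importing cystine for glutathione, which feeds the lipid peroxide reductase GPX4, by regenerating radical-trapping quinones, and by filling membranes with monounsaturated fatty acids, which resist oxidation. They become prone to it when polyunsaturated acids are made, activated with coenzyme A and built into phospholipids, and when oxidoreductases feed electrons to the reaction. Described here are 10 genes of these steps, chosen by name from the 50868 genes of the deposited table. They were read in 2 roles. The defence group held 5 genes: SLC7A11 and SLC3A2 (the 2 chains of the cystine/glutamate antiporter), AIFM2 (the ubiquinone reductase FSP1), and ACSL3 and SCD (activation and synthesis of monounsaturated fatty acids). The execution group held the other 5: FADS1 and FADS2 (desaturases that make polyunsaturated fatty acids), ACSL4 and LPCAT3 (activation of those acids and their insertion into phospholipids) and POR (cytochrome P450 oxidoreductase, an electron donor). All 10 genes passed a filter of a mean of at least 1 FPKM (a fragment number divided by gene length and by sequencing depth), as did 11004 genes in all.

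RNA was sequenced from KBM5, a human chronic myeloid leukemia cell line of myeloid blast crisis that carries BCR-ABL. There were 4 groups of 1 library each: CTR, DSF, IM and IM-DSF, which received no drug, DSF, IM or both. The labels give no dose, no time and no spelled-out names; DSF and IM are read here as disulfiram and the BCR-ABL kinase inhibitor imatinib. By its title, the study concerns joint action on GPX4 and BCR-ABL in leukemia stem cells, whereas the material is 1 bulk cell line. With 1 library per group there was no replicate check and no test of a drug was possible, so every difference is between 2 libraries. The values do not separate fewer cells of a kind from less RNA per cell.

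The 4 libraries had denominators of 14506544 (CTR), 14704466 (DSF), 15810648 (IM) and 12443255 (IM-DSF) fragments. Of 8 myeloid blast markers, 6 had a mean of at least 1 FPKM, while CD34 lay below that and KIT was listed at 0 in every library. The 8 markers summed to 1320 FPKM in CTR, 1785 with DSF, 2153 with IM and 1919 with both drugs, and their part in the differences below was not tested. No T cell, B cell, erythroid, megakaryocyte or stromal marker searched reached a mean of 1 FPKM, and no such list summed to more than 0.784 FPKM in any library.

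None of the 10 genes differed by the size rule of 1 log2 unit (2-fold) on the log2(FPKM + 1) scale in any of the 5 contrasts. The rule called 1.12% of all genes in DSF against CTR, 2.43% in IM against CTR, 4.28% in IM-DSF against CTR, 1.74% in IM-DSF against IM and 2.37% in IM-DSF against DSF. The smaller differences had a pattern by gene. SLC7A11 was lower with either drug alone and highest with both. SCD was lower with either drug and lowest with both. FADS2 was higher with either drug alone and near CTR with both. LPCAT3 differed least among the libraries, by 1.13-fold from lowest to highest.

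**Figure D1:**
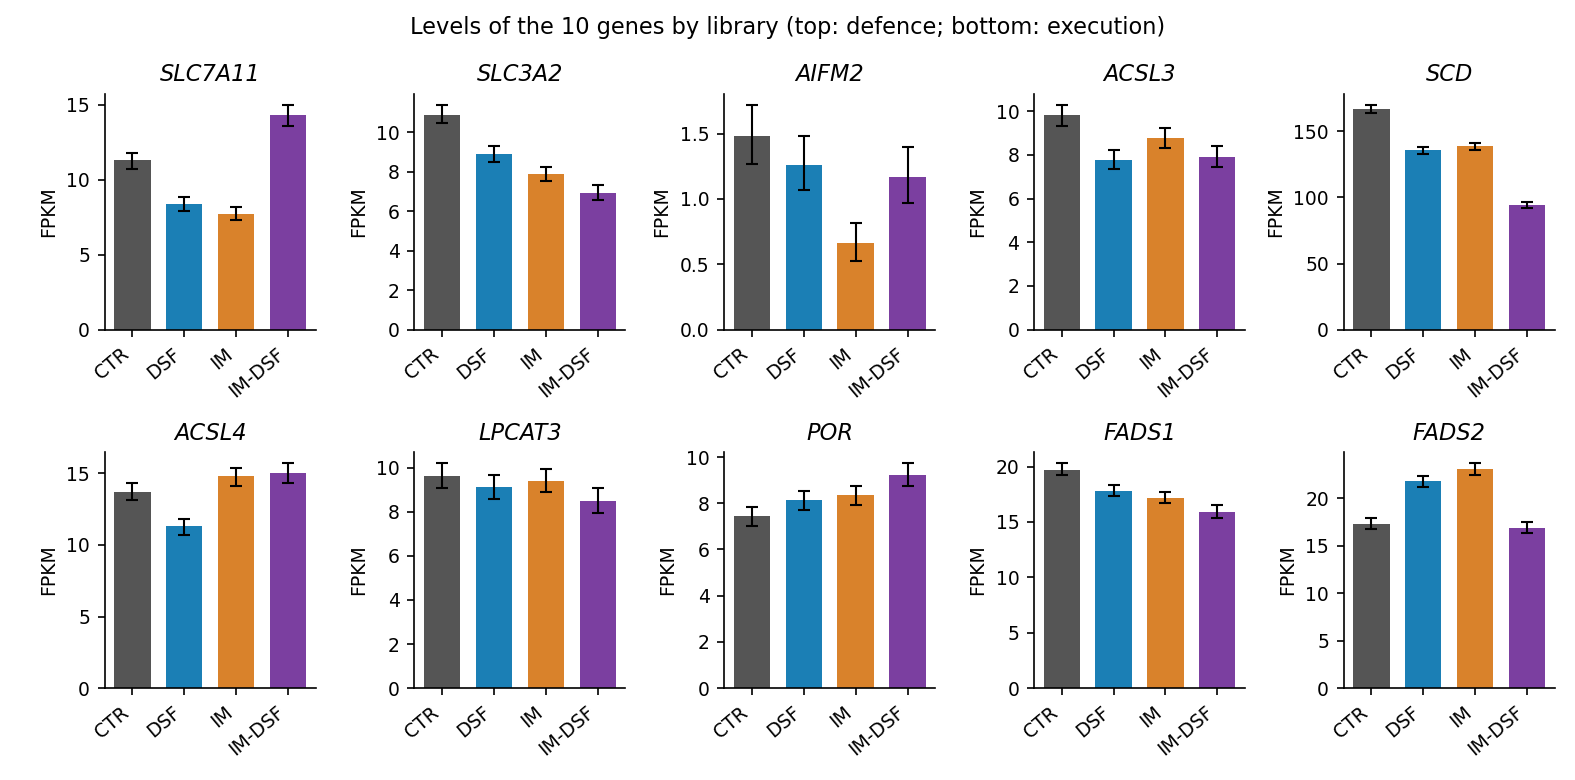
FPKM of each gene (vertical axis, from 0) in the 4 libraries; bars are the deposited values and error bars the 95% counting interval (exact Poisson), with defence genes above and execution genes below. SLC7A11 is tallest in IM-DSF at 14.3 FPKM, and SCD is shortest there at 93.9 FPKM.

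Promoter sequences show what lies at the gene starts that RefSeq annotates. RefSeq's table (GRCh38.p14) matched 8 of the 10 genes, with windows of 300 bases from 250 before to 50 after that start. SLC7A11 and POR were not matched. For SLC3A2, FADS1 and FADS2 the windows lie inside the deposited gene spans, away from their outer starts. The deposited start of SLC3A2, for example, is 62856102, while its window begins at 62881449. Both strands were searched for TGATGNAA, the core of the element bound by ATF4, a stress factor known to drive amino acid transporter genes. They were also searched for TGANNNNGC, a loose form of the antioxidant response element. The last letters were TCACNCCAC, a sterol regulatory element of the kind bound by the lipid synthesis factor SREBP. No 2 matches overlapped. SLC3A2 is shown because its window held both stress motifs, AIFM2 because its single match lies just before the start, and SCD because it had the largest log2(FPKM + 1) difference from CTR among the 10 genes. Capitals mark motif matches and all other bases are in lower case, written 5′ to 3′ on the gene's strand.
SLC3A2 promoter, chr11:62881449-62881748, plus strand: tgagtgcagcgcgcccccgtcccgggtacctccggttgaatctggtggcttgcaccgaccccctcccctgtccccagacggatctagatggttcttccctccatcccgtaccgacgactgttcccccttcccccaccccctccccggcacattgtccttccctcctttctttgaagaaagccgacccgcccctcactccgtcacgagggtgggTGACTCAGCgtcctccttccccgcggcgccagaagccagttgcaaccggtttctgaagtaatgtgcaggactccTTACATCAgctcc
AIFM2 promoter, chr10:70132776-70133075, minus strand: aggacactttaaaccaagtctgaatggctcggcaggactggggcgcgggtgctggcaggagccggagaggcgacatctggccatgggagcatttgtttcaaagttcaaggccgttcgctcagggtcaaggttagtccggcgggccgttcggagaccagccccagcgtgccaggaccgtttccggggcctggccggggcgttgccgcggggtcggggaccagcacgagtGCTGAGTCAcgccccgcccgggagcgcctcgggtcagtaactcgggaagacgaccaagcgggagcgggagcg
SCD promoter, chr10:100346983-100347282, plus strand: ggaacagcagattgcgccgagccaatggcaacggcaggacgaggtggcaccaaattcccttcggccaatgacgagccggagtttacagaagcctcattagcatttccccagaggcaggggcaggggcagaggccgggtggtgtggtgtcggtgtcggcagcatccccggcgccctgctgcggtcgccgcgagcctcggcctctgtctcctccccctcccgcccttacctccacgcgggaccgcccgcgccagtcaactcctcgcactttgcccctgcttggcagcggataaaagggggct

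In SLC3A2 the antioxidant response element TGACTCAGC spanned positions -37 to -29, counted from the RefSeq start at 1 with no position 0. The ATF4-type element, TTACATCA as the reverse complement, spanned positions 38 to 45. In AIFM2 the antioxidant element read GCTGAGTCA, in reverse complement, at positions -22 to -14. LPCAT3 held the only other match, to the loose antioxidant letters, at positions -93 to -85. Among all 35116 promoters of this length, 41.8% held the antioxidant letters, 3.62% the ATF4-type letters and 1.13% the sterol letters. The sterol letters were in none of the 8 matched windows, SCD, FADS1 and FADS2 included; this says only that they are not in these windows.

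SLC7A11 (ENSG00000151012; GRCh38.p14 chromosome 4, 138164097 to 138242349) encodes the light chain that carries cystine in exchange for glutamate. Its level was 11.3 FPKM in CTR, 8.38 with DSF, 7.73 with IM and 14.3 with both drugs, from 1206 to 1754 fragments per library. Both single-drug libraries lay below CTR and the combination above it. The ratio to CTR was 0.744 in DSF (95% counting interval 0.690 to 0.802), 0.686 in IM (0.636 to 0.740) and 1.27 in IM-DSF (1.18 to 1.36). In the contrasts between treated libraries it was 1.85 times IM (1.72 to 1.99) and 1.70 times DSF (1.58 to 1.84) in IM-DSF. The log2 difference from IM was 0.81, and 1.07% of all tested genes lay at least as far up in that contrast. SLC7A11-AS1, an overlapping antisense gene, was listed at 0 in every library.

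SLC3A2 (ENSG00000168003; chromosome 11, 62856102 to 62888875) encodes the heavy chain CD98, which brings SLC7A11 and several other amino acid transporters to the cell surface. It had 10.9 FPKM in CTR, 8.91 with DSF, 7.87 with IM and 6.95 with both drugs, so it was lowest with both drugs. Its ratio to CTR was 0.814 in DSF (0.766 to 0.865), 0.719 in IM (0.676 to 0.765) and 0.635 in IM-DSF (0.593 to 0.680). In IM-DSF it was 0.883 times IM (0.821 to 0.949), where SLC7A11 was above IM. The RNA proportion of the 2 genes differed in 1 library. The FPKM ratio of SLC7A11 to SLC3A2 was 1.03 in CTR (0.966 to 1.10), 0.941 with DSF (0.875 to 1.01), 0.983 with IM (0.913 to 1.06) and 2.06 with both drugs (1.91 to 2.21). The interval of IM-DSF did not meet those of the other 3 libraries. How near these ratios lie to 1 depends on the gene lengths: per GENCODE 29 exon length they were 0.371, 0.339, 0.354 and 0.741, again highest with both drugs.

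AIFM2 (ENSG00000042286; chromosome 10, 70098223 to 70132934), the FSP1 gene whose product keeps ubiquinone reduced, was the lowest of the 10 genes. It had 1.48 FPKM in CTR, 1.26 with DSF, 0.659 with IM and 1.17 with both drugs, from 171, 148, 83 and 116 fragments. IM alone stood below the other 3 libraries. The IM level was 0.445 times CTR (0.338 to 0.582), the smallest ratio to CTR among the 10 genes in any library. Its log2 difference of -0.58 stayed inside the size rule because a pseudocount of 1 FPKM weighs on a gene this low; with a pseudocount of 0.1 it was -1.06, past the rule. IM-DSF was 1.78 times IM (1.33 to 2.38), while its ratio to CTR, 0.791 (0.619 to 1.01), and to DSF, 0.926 (0.720 to 1.19), had intervals that included 1.

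ACSL3 (ENSG00000123983; chromosome 2, 222860934 to 222944639) encodes an acyl-CoA synthetase needed for the protective action of exogenous monounsaturated fatty acids. Its levels were 9.83 FPKM in CTR, 7.79 with DSF, 8.76 with IM and 7.92 with both drugs. All 3 treated libraries lay below CTR, at 0.792 (0.734 to 0.856), 0.891 (0.828 to 0.959) and 0.805 times (0.743 to 0.872). IM-DSF and DSF had like values, with a ratio of 1.02 (0.934 to 1.11).

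SCD (ENSG00000099194; chromosome 10, 100347124 to 100364834) encodes the stearoyl-CoA desaturase that makes oleate and palmitoleate. It was the most abundant of the 10 genes by FPKM in every library, with 167 in CTR, 136 with DSF, 139 with IM and 93.9 with both drugs, from 6263 to 12989 fragments. The 2 single-drug libraries lay close together below CTR and the combination lay below both. The ratio to CTR was 0.812 in DSF (0.791 to 0.833), 0.831 in IM (0.811 to 0.852) and 0.562 in IM-DSF (0.545 to 0.579). The last, a log2 difference of -0.82, was the largest difference from CTR among the 10 genes on the log2(FPKM + 1) scale, and 3.08% of all tested genes lay at least as far down. IM-DSF was also 0.676 times IM (0.656 to 0.697) and 0.692 times DSF (0.671 to 0.714).

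ACSL4 (ENSG00000068366; chromosome X, 109624244 to 109733403), the synthetase that prefers arachidonate and sets sensitivity to ferroptosis, had 13.7 FPKM in CTR, 11.3 with DSF, 14.8 with IM and 15.0 with both drugs. DSF alone was low, at 0.824 times CTR (0.770 to 0.881), while IM was 1.08 times (1.01 to 1.15) and IM-DSF 1.10 times CTR (1.03 to 1.17). IM-DSF was 1.33 times DSF (1.25 to 1.43) and 1.02 times IM (0.956 to 1.08). Against its counterpart ACSL3, the FPKM ratio was 1.39 in CTR (1.30 to 1.49), 1.45 with DSF (1.34 to 1.56), 1.68 with IM (1.58 to 1.80) and 1.90 with both drugs (1.75 to 2.05). By FPKM, the balance of the 2 genes thus leaned most towards ACSL4 in both libraries with IM.

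LPCAT3 (ENSG00000111684; chromosome 12, 6976186 to 7018510) encodes the acyltransferase that inserts polyunsaturated acids into lysophospholipids. It had 9.61 FPKM in CTR, 9.11 with DSF, 9.41 with IM and 8.50 with both drugs. The intervals for DSF (0.872 to 1.03) and IM (0.903 to 1.06) against CTR included 1, and that of IM-DSF, 0.884 times CTR (0.809 to 0.965), did not. Its value is uncertain: EMG1, a ribosome assembly gene on the opposite strand, shares 3100 exon bases with it in GENCODE 29 and had a level that ranged from 7.26 FPKM with IM to 11 in CTR. RP3-461F17.3, a gene whose strand is not in GENCODE 29, overlaps it as well. The use of strand in counting is not given in the sources used here.

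POR (ENSG00000127948; chromosome 7, 75899200 to 75986855) passes electrons from NADPH to cytochromes P450 and has been linked to the peroxidation of membrane lipids. It had 7.43 FPKM in CTR, 8.12 with DSF, 8.34 with IM and 9.23 with both drugs, so all 3 treated libraries lay above CTR. The ratios to CTR were 1.09 (1.01 to 1.18), 1.12 (1.04 to 1.21) and 1.24 (1.15 to 1.34). The departure of IM-DSF from the sum of both single-drug differences was 0.02 log2 units.

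FADS1 (ENSG00000149485; chromosome 11, 61799625 to 61829318), the delta-5 desaturase, makes arachidonate. It had 19.7 FPKM in CTR, 17.8 with DSF, 17.2 with IM and 15.9 with both drugs. All treated libraries lay below CTR, at 0.902 (0.866 to 0.941), 0.873 (0.838 to 0.910) and 0.807 times (0.771 to 0.844). FADS2 (ENSG00000134824; chromosome 11, 61792980 to 61867354), the delta-6 desaturase that acts before it, had 17.3, 21.8, 23.1 and 16.9 FPKM in the same order. It was 1.26 times CTR in DSF (1.20 to 1.31) and 1.33 times in IM (1.28 to 1.39), and in IM-DSF 0.974 times (0.930 to 1.02). IM-DSF was 0.732 times IM (0.701 to 0.765) and 0.776 times DSF (0.742 to 0.812).

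The FPKM ratio of FADS2 to FADS1 was 0.879 in CTR (0.842 to 0.917), 1.22 with DSF (1.17 to 1.27), 1.34 with IM (1.29 to 1.39) and 1.06 with both drugs (1.01 to 1.11). On the deposited lengths FADS2 was the lower of the pair in CTR and the higher in each treated library; per GENCODE 29 exon length the ratio was 0.764, 1.06, 1.16 and 0.923, so with both drugs FADS2 was then the lower one. Both values are uncertain. The deposited coordinates place FADS1 inside the span of FADS2, on the opposite strand, and the 2 share 490 exon bases in GENCODE 29. The replication nuclease gene FEN1 overlaps FADS2, on the same strand, and shares 49 exon bases with it. FEN1 had 61.7 FPKM in CTR, 60.2 with DSF, 46.2 with IM and 39.7 with both drugs, an order unlike that of FADS2.

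**Figure D2:**
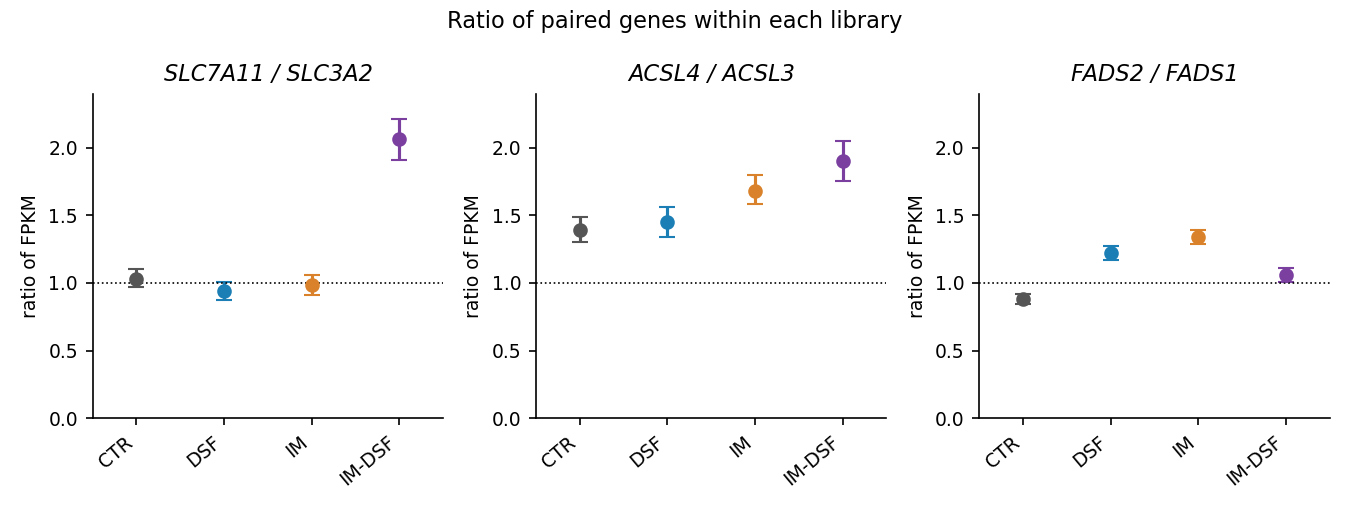
Ratio of FPKM of the 2 named genes within each library (vertical axis, from 0), with the 95% counting interval; the dotted line marks equal FPKM. SLC7A11 to SLC3A2 stands at 2.06 in IM-DSF against 0.941 to 1.03 elsewhere, and FADS2 to FADS1, on the deposited lengths, is below 1 in CTR only (per GENCODE 29 length with both drugs too, at 0.923).

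By role, the defence genes had the lower medians in all contrasts with CTR, which share the same CTR library. Without CTR the roles were close. The medians were -0.13 (defence) and -0.11 (execution) in IM-DSF against IM, and -0.06 and -0.09 in IM-DSF against DSF. The roles were chosen with earlier results of these data known. In IM against CTR all 5 defence genes lay below CTR with intervals that excluded 1 (median log2 difference -0.43), while 29.5% of all tested genes were lower by that criterion and the median over all genes was 0.02. Of the 5 execution genes, 1 was lower (FADS1) and 3 were higher (ACSL4, POR and FADS2), with a median of 0.10; 33.7% of all genes were higher by the same criterion.

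In DSF against CTR 4 of 5 defence genes were lower beyond counting error, all but AIFM2 (background 22.3%; median -0.30, all genes 0.00). Of the execution genes, ACSL4 and FADS1 were lower and POR and FADS2 higher (background for higher 22.5%; median -0.07). This contrast uses the same CTR library as the one before, so the 2 are not independent. In IM-DSF against CTR 3 defence genes were lower (SLC3A2, ACSL3 and SCD; background 31.9%) and SLC7A11 was higher (background 34.6%), with a median of -0.28. In the same contrast LPCAT3 and FADS1 were lower and ACSL4 and POR higher (median -0.04).

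In IM-DSF against IM, which asks what DSF left different in cells that also received IM, SLC7A11 and AIFM2 were higher (background 22.0%) and SLC3A2, ACSL3 and SCD lower (background 22.7%). Among execution genes POR was higher, and LPCAT3, FADS1 and FADS2 were lower. In IM-DSF against DSF, SLC7A11, ACSL4 and POR were higher (background 31.3%), and SLC3A2, SCD, FADS1 and FADS2 were lower (background 29.4%). Over the 10 genes the medians were -0.12 and -0.08 in these 2 contrasts, against 0.00 and 0.01 over all genes. The stricter 5 FPKM filter, which AIFM2 alone of the 10 failed, gave whole-table medians of -0.024 and -0.054. The 10 genes lay nearer to these, above all in IM-DSF against DSF. In DSF, IM and IM-DSF against CTR that filter gave -0.024, -0.037 and -0.077, also below the medians over all genes.

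**Figure D3:**
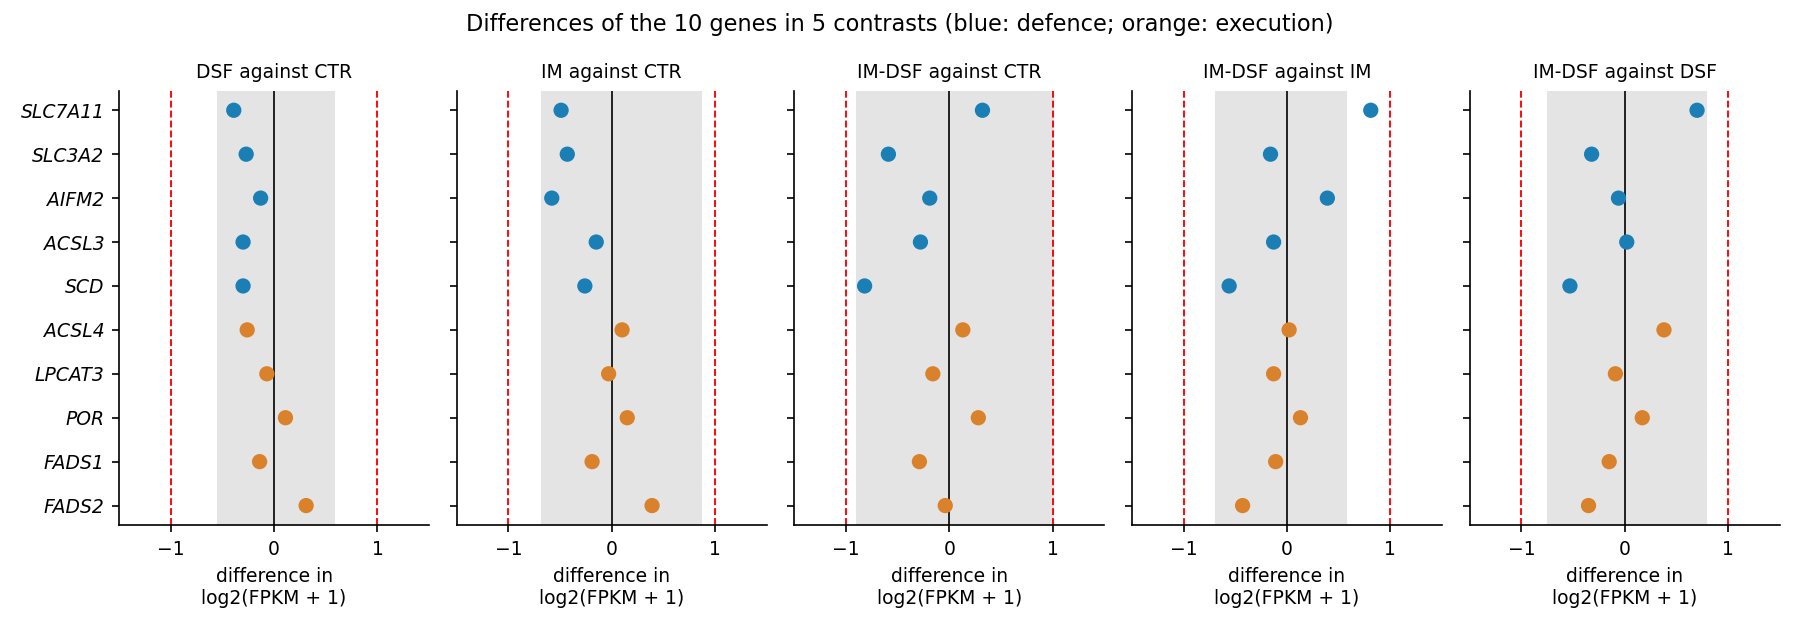
Difference in log2(FPKM + 1) of each gene (horizontal axis) in the 5 contrasts; grey marks the central 95% of all 11004 tested genes and red dashes the size rule of 1 log2 unit. No point passes a red line, and only SLC7A11 in IM-DSF against IM (0.81, upper end of the central range 0.57) lies outside the grey.

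The combination was also set against the sum of the single drugs. The departure is the log2 difference of IM-DSF from CTR minus the sum of the DSF and IM differences from CTR, and all 4 libraries enter it. SLC7A11 had a departure of 1.20 log2 units, the only one of the 10 past 1; 1.38% of all tested genes had a departure of at least 1 (1.68% of -1 or below), and 0.881% one as large as that of SLC7A11. Without a pseudocount it was 1.31 (95% counting interval 1.16 to 1.46). FADS2 had the most negative departure, -0.74, as low as 3.41% of all genes (-0.78 without a pseudocount, -0.87 to -0.69). AIFM2 had 0.52 on the log2(FPKM + 1) scale and 1.06 without a pseudocount, with a wide interval of 0.54 to 1.57.

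Smaller departures beyond counting error were those of ACSL4 (0.28), ACSL3 (0.17) and SCD (-0.26). The counting interval excluded 0 on the positive side for 4 of the 10 genes (background 20.2%) and on the negative side for 2 (background 23.1%). For SLC3A2, LPCAT3, POR and FADS1 it included 0. In SLC7A11 and FADS2 each drug went with intervals on opposite sides of 1 without and with the other drug, 2 of 10 genes for either drug, where 8.64% of all genes did so for DSF and 6.6% for IM.

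**Figure D4:**
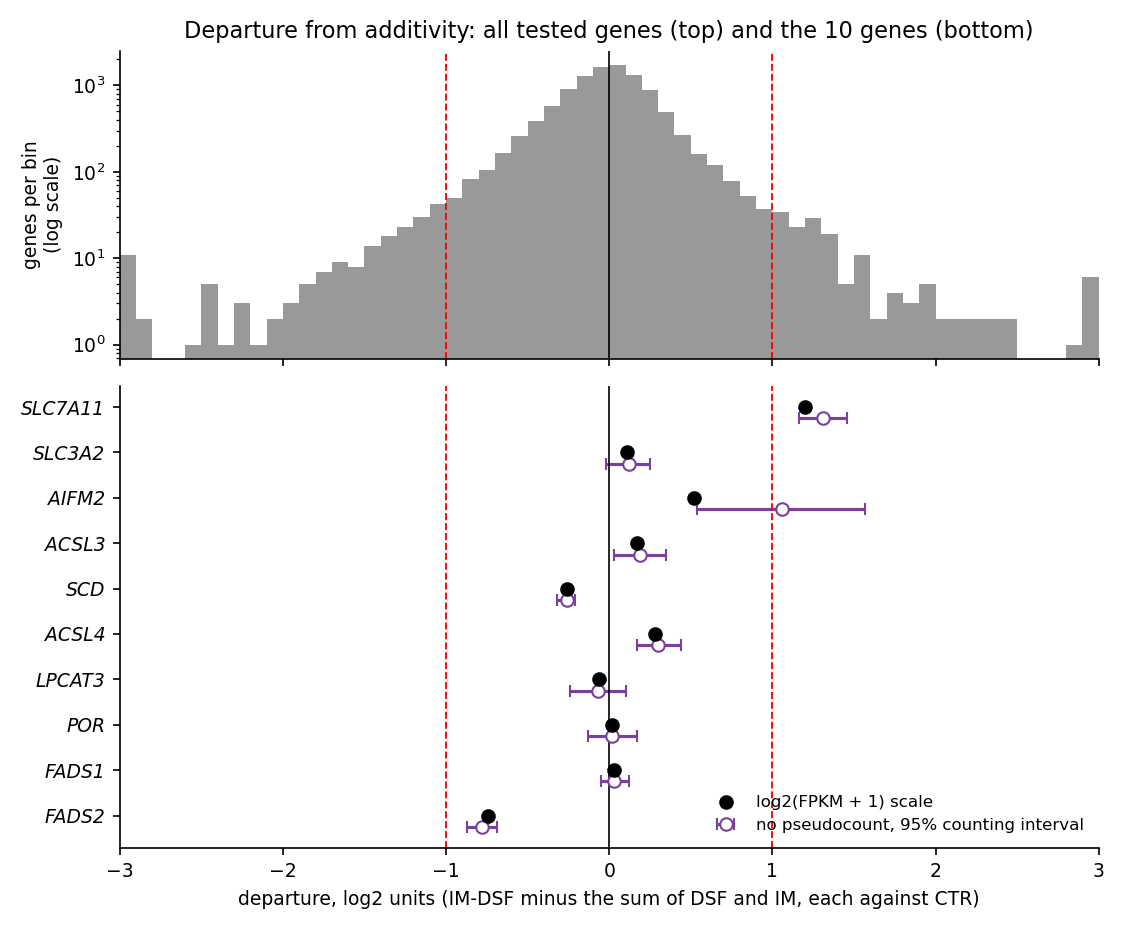
Above, number of tested genes per 0.1 log2 unit of departure (log axis; values past 3 units are in the end bins); below, the departure of each of the 10 genes, as filled points on the log2(FPKM + 1) scale and open points without a pseudocount with the 95% counting interval. SLC7A11 lies at 1.20, past the red dashes at 1, and FADS2 at -0.74.

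The order of levels between genes depends on the gene lengths behind the FPKM, and per GENCODE 29 exon length 7 of the 10 ranks in CTR differed (SLC3A2 moved from 6 to 3 and SLC7A11 from 5 to 9). On the deposited lengths SCD was first and AIFM2 last in all 4 libraries. SCD was 8.46 times the next gene in CTR (FADS1; 8.18 to 8.75) and 5.56 times the next in IM-DSF (FADS2; 5.32 to 5.80). In CTR the order after SCD, on these lengths, was FADS1, FADS2, ACSL4, SLC7A11, SLC3A2, ACSL3, LPCAT3, POR and AIFM2. There the neighbours SLC7A11 and SLC3A2, and ACSL3 and LPCAT3, did not differ beyond counting error. SLC7A11 ranked 5 in CTR, 7 with DSF, 9 with IM and 5 with both drugs, where its level did not differ beyond counting error from that of ACSL4 (ratio of ACSL4 to SLC7A11 1.05, 0.983 to 1.12).

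Other genes of the pathway were read from 6 lists. For comparison, the size rule called 1.12% of all genes in DSF against CTR, 2.43% in IM against CTR and 4.28% in IM-DSF against CTR. In IM-DSF it called 1.74% against IM and 2.37% against DSF. Of 15 measured genes in a list of cystine use and glutathione synthesis, which also held the iron exporter SLC40A1, none passed the size rule in DSF or IM against CTR, and in IM-DSF 1 was higher and 2 lower (median -0.20, all genes 0.02). SLC1A5, a glutamine importer, had 77.2 FPKM in CTR, 69.0 with DSF, 49.3 with IM and 30.0 with both drugs, and SLC38A1, another glutamine importer, had 20.6, 15.6, 10.2 and 9.74. The higher one was SLC40A1, ferroportin, which does not handle cystine or glutathione synthesis, with 1.35, 1.58, 3.02 and 4.62 FPKM. The subunits of glutamate-cysteine ligase, which uses the imported cystine, had unlike orders: GCLC 5.26, 5.05, 7.08 and 6.76 FPKM, and GCLM 11.2, 8.60, 8.95 and 9.63.

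Of 16 measured genes of other lipid peroxide defence, 1 was lower in IM than in CTR by the rule, which called 2.43% of all genes. It was NQO1, a quinone reductase (6.36 FPKM in CTR and 2.64 in IM). In IM-DSF 2 were higher than in CTR: SC5D, a sterol desaturase (1.79 and 5.67 FPKM), and BLVRB, a biliverdin reductase (1.45 and 5.0). The rule called 4.28% of all genes in that contrast. GPX4 itself ranged from 17.6 FPKM in IM-DSF to 20.1 in DSF. None of 13 measured acyl-CoA synthetases, desaturases, elongases and other lipid synthesis genes passed the rule in any contrast. Their median in IM-DSF against CTR was -0.22, and 2 of the 13 were above CTR. The largest differences were those of ELOVL1, an elongase of long saturated and monounsaturated acids (5.94, 4.24, 3.95 and 3.01 FPKM), INSIG1, which retains SREBP in the endoplasmic reticulum (7.58, 11.5, 7.61 and 11.7), and FASN, fatty acid synthase (44.2, 46.1, 38.9 and 31.3). INSIG1 was thus higher in both libraries with DSF and near CTR with IM alone, while SCD was lower in all treated libraries. None of 9 other phospholipid remodelling and ether lipid genes passed the rule; PNPLA8, a phospholipase, had the largest difference, with 1.58 FPKM in CTR and 3.0 in IM-DSF, followed by the acyltransferases MBOAT7 (4.90 and 3.33) and AGPAT3 (2.4 and 3.1).

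Of 11 measured peroxidation enzymes and electron donors, none passed the rule in DSF or IM against CTR. In IM-DSF against CTR, where it called 4.28% of all genes, the rule called CYBB higher. CYBB is the catalytic subunit of the phagocyte NADPH oxidase and also a gene of maturing myeloid cells (6.81, 11.2, 13.4 and 16.0 FPKM). NCF4, a further subunit at 22.8 FPKM in CTR, reached 39.2 with both drugs, short of the rule. Lipoxygenases were near 0: ALOX12, ALOX12B, ALOX15B and ALOXE3 were listed at 0 in every library, ALOX5 reached at most 0.190 FPKM and ALOX15 at most 0.0759. The electron donor CYB5R1 had 4.34, 4.52, 4.92 and 4.48 FPKM, below POR in each library.

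Of 12 measured regulators of the 10 genes none passed the rule in any contrast. ATF4 drives SLC7A11 and SLC3A2 transcription under amino acid stress. Its RNA had 115 FPKM in CTR, 102 with DSF, 89.2 with IM and 74.8 with both drugs. This falling order was also that of SLC3A2, FADS1 and SLC1A5, and not that of SLC7A11. A part of ATF4 in these differences was not tested. NFE2L2, the gene of NRF2, had 11.4, 10.2, 11.2 and 10.7 FPKM, and BACH1, which competes with NRF2 for antioxidant response elements, had 6.43, 6.13, 7.64 and 8.90. SREBF1, the SREBP gene of fatty acid synthesis, had 4.47, 4.51, 6.41 and 3.31 FPKM and was lowest in IM-DSF.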

How the data were processed

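The authors deposited 1 table of FPKM for KBM5 cells, with 1 column per library, per the file headers. The submitters' processing notes name HISAT2 2.0.4 and GRCh38.p14, and a stranded mRNA kit was used, per the labels' protocols; the counter and annotation release are not given here. Coordinates come from the deposited table; exon lengths, strands and overlaps from GENCODE 29.

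Fragment numbers were recovered. In single-exon genes, FPKM times length was a whole multiple (within 0.05) of 1 step per library for 99.97% of genes, which gives the denominators. For 11000 of 11004 genes a length of 50 to 60000 bases made the values of all 4 libraries whole within 0.005; the smallest was taken, and these fragments were 92.2% (IM-DSF) to 93.4% (CTR) of the denominators. The recovery was tested on simulated data; it cannot see a factor shared by the fragment numbers of all 4 libraries, which would leave ratios as they are and make intervals too wide. For the 10 genes the lengths found were at or above those of GENCODE 29.

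Ratios are of deposited FPKM, with 95% exact conditional binomial intervals; departures have normal intervals. They cover counting error only, and are too narrow where PCR copies were counted. Log2(FPKM + 1) differences understate the change of low genes. No p-value is given, since each group has 1 library. From each list the 3 genes with the largest difference in IM-DSF against CTR were named, except genes not reported here; GPX4, GCLC, GCLM, the lipoxygenases, CYB5R1, NFE2L2 and SREBF1 were added after their values were seen. The 10 genes, roles, lists and motifs were chosen with earlier results of these data known. PEDS1 was the 1 list symbol not matched. Alternatives were another pseudocount (0.1), other filters (none, 5 FPKM), TPM with and without mitochondrial genes, and median-of-ratios and trimmed-mean factors. Python 3.11.15, pandas 2.3.3 and scipy 1.17.1 were used.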

Additional observations from a re-analysis of the deposited data

Results flagged for a closer look

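In 2 genes the same drug went with opposite differences in the absence and presence of the other drug, with counting intervals on opposite sides of 1. SLC7A11 with DSF had a ratio of 0.744 to CTR, but of 1.85 to IM when both drugs were given. With IM it had 0.686 against CTR and 1.70 in IM-DSF against DSF. FADS2 had the reverse signs: with DSF 1.26 against CTR and 0.732 in IM-DSF against IM, and with IM 1.33 against CTR and 0.776 in IM-DSF against DSF. The difference between these effects was not tested beyond counting error, since each group has 1 library. Of 11000 genes, 8.64% had such opposite intervals for DSF and 6.6% for IM. The same 4 libraries enter both drugs' comparisons, so these are not separate observations.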

How the results depend on the processing

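No paired analysis was possible because each group has 1 library, and for the same reason no library could be left out. No value of the 10 genes that lay beyond counting error changed sign under any of the 7 alternatives. With a pseudocount of 0.1 FPKM, 1 gene (AIFM2) passed the size rule on the lower side in IM against CTR, where 0 did with 1 FPKM. The departure of SLC7A11 was past 1 under every alternative. Over the 5 contrasts the rule called between 123 and 471 of all genes, 309 to 894 with a pseudocount of 0.1, 53 to 228 among genes of at least 5 FPKM, and 163 to 553 with no filter. For the departure it called 337 genes, and 654, 132 and 517 under these alternatives. TPM without mitochondrial genes shifted the log2 differences of all genes by a median of at most 0.082 in any contrast. It moved 8 of 60 values of the 10 genes beyond counting error. Among them, in IM-DSF against IM, were SCD, from -0.56 to -0.47, and FADS1, from -0.11 to -0.02. In that contrast ACSL3 and LPCAT3 also came nearer to 0, from -0.13 to -0.05, and SLC3A2 from -0.16 to -0.08. Levels per GENCODE 29 exon length, an alternative chosen after seeing the data, changed ranks in CTR: SLC3A2 moved to 3, FADS2 to 4, ACSL4 to 5, LPCAT3 to 6, POR to 7, ACSL3 to 8 and SLC7A11 to 9. AIFM2, with 83 to 171 fragments, had the widest intervals.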

Other observations

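The gene lengths behind the deposited FPKM differed from the GENCODE 29 exon lengths unevenly among the 10 genes. SCD had 5362 bases in both and SLC7A11 had 9865 against 9645. SLC3A2 had 14700 bases against 5178, a ratio of 2.84, POR 12048 against 6112 and LPCAT3 8476 against 4725. Ratios between libraries do not depend on this, but levels between genes do: per GENCODE 29 length SLC3A2 would have 31.1 FPKM in CTR in place of 10.9. On that scale SLC7A11 lay below SLC3A2 in all 4 libraries. Fragments outside the GENCODE 29 exons could not be removed from these numbers.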
